A study of Mus musculus with 6 samples.

Results

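The cytosolic ribosomal protein genes were taken as the protein-coding mouse genes whose symbols follow the Rpl, Rps and Rplp number series, without pseudogenes and without the Rps6k kinases. The annotation held 78 genes with such a symbol, of which 76 were protein coding, and 75 of these were among the 38293 genes with deposited counts, 30 for proteins of the small 40S subunit and 45 for proteins of the large 60S subunit. Rpl24 was not analysed here. The genes were measured by stranded mRNA sequencing in 6 libraries, each from the fetal liver (FL) of 1 C57BL/6 embryo at E14.5. Lin-cKit+ cells, which lack markers of mature lineages, carry c-Kit and include stem and progenitor cells, had been sorted for the sequencing. There were 3 embryos labelled wild-type (wt) and 3 of the genotype VavCre+ hnRNP L fl/fl (hnRNP L deficient), whose Vav promoter expresses Cre in hematopoietic cells and thereby removes floxed Hnrnpl there. A figure legend of the study gives the wt samples of the sequencing as L fl/fl, that is, with floxed Hnrnpl. The comparison asked how the loss of hnRNP L, an RNA-binding protein that acts in splicing and mRNA stability, changed the mRNAs of the ribosome.

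Each ribosome carries about a single copy of most of these proteins, and cells make them in balanced amounts with the ribosomal RNAs. Their mRNAs are short, abundant and stable, and most start with a 5′ terminal oligopyrimidine (TOP) tract, a run of C and T through which mTOR and LARP1 control translation. In the hematopoietic system the family is best known from Diamond-Blackfan anemia, in which the loss of a single copy of a ribosomal protein gene impairs the formation of red cells.

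The bases around the transcription start, where a TOP tract would lie, are shown for 5 of the genes named below. The 30 bases run from 10 bases before to 20 bases from the RefSeq transcription start in GRCm38.p6, 5′ to 3′, and the longest run of C and T is in capitals. Where a gene had several RefSeq starts, the one with the longest run was used.
Rpl7a, chr2:26910797-26910826, plus strand: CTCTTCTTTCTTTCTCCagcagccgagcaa
Rpl39, chrX:37085203-37085232, minus strand: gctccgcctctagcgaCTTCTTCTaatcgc
Rpl35a, chr16:33056472-33056501, plus strand: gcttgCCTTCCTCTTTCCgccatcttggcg
Rps10, chr17:27635225-27635254, minus strand: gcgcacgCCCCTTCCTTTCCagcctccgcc
Rpl15, chr14:18270967-18270996, minus strand: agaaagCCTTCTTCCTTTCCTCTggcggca
Within the 30 bases the run was 17 bases long in Rpl7a and Rpl15, 13 in Rpl35a and Rps10, and 8 in Rpl39. In Rpl7a it begins at the first base shown, so that 17 is a minimum. In Rpl39 it lies after the annotated start and not at it. RefSeq windows were at hand for 55 of the 75 genes. A run of 7 or more C or T on the coding strand, between 30 bases before and 50 bases after the start, was found in 47 of these (85.5%), compared to 46.1% of 27025 genes with a window. Over the whole window, 250 bases before to 50 after the start and on either strand, CCGGAAG, a core of sites for ETS factors, was found in 23 of 55 (41.8%) compared to 9.93% of all genes. ATGGCGG, the core of YY1 sites, was found in 9 of 55 (16.4%) compared to 4.69%. These matches describe the letters of the windows and not the use of a site.

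The libraries held between 55952160 and 76157226 reads on genes. Hnrnpl itself stood at 552, 531 and 528 CPM (reads scaled to a common, normalized library size) in wt replicates 1 to 3 and at 242, 288 and 270 CPM in the hnRNP L deficient replicates, a log2 fold change of -1.01 (SE 0.09, edgeR adjusted p = 0.00724), so that part of its transcript was still counted. Among the progenitor markers Flt3 (log2 fold change -3.35), Cd34 (-2.21) and Ptprc (-2.10) were lower in hnRNP L deficient cells. EdgeR called 5 of the 8 listed lower and none higher, against 9.85% and 9.32% of all genes tested. Kit, the gene behind the sort, was among those called lower (-0.62). Wt replicate 2 stood apart through granulocyte and monocyte genes, whose summed level was 8102 CPM there, 589 and 1505 CPM in wt replicates 1 and 3, and 242 to 812 CPM in hnRNP L deficient libraries. Csf1r was the 1 gene of these 8 that edgeR called, and was lower, against 9.85% of all genes called lower. The 8 hepatocyte markers summed to between 116 and 240 CPM in wt and between 21.9 and 74.3 CPM in hnRNP L deficient libraries. None of the 8 was at 0. All 8 were lower in each hnRNP L deficient library than in each wt library, as were 22.7% of all genes tested. EdgeR called 2 of the 8 lower and DESeq2 7, against 9.85% and 14.3% of all genes. The 9 erythroid markers reported summed to 1893 to 1939 CPM in wt and 1497 to 2254 CPM in hnRNP L deficient libraries. The megakaryocyte (63.6 to 104 CPM), mast cell (13.4 to 84.4 CPM), stromal and endothelial (8.25 to 46.9 CPM) and lymphoid (0.0932 to 7.54 CPM) markers were low in all libraries. Of those tested edgeR called 1 of 6, 0 of 4, 1 of 6 and 2 of 3, all lower, against 9.85% of all genes. The part of these shifts in the ribosomal protein values was not tested, and in bulk samples fewer cells of a type and less RNA per cell cannot be told apart.

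Ribosomal protein mRNA as a whole took a like share of the libraries of both genotypes. Reads on the 75 genes made up 5.87%, 6.40% and 5.66% of all reads on genes in wt replicates 1 to 3 and 5.47%, 5.60% and 5.80% in hnRNP L deficient replicates 1 to 3. The groups overlapped, with the lowest wt library inside the range of the hnRNP L deficient ones. On the normalized scale the 75 genes summed to 58335 ± 3604 CPM in wt and 57639 ± 1340 CPM in hnRNP L deficient cells (SD, n = 3 each), a difference smaller than the spread between wt embryos. These shares are relative to all mRNA counted, and the amount of ribosomal protein mRNA per cell was not measured.

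The sums by subunit were close between genotypes, and the ratio of the 60S to the 40S sum was higher in hnRNP L deficient libraries. The 60S genes summed to 35984, 36581 and 32905 CPM in wt and 34870, 34949 and 36237 CPM in hnRNP L deficient libraries. The 40S genes summed to 23178, 24873 and 21485 CPM in wt and 21877, 22041 and 22943 CPM in hnRNP L deficient libraries. Both sums overlapped between genotypes. The ratio of the 60S to the 40S sum was 1.55, 1.47 and 1.53 in wt and 1.59, 1.59 and 1.58 in hnRNP L deficient libraries, so that the groups did not overlap for the ratio. The ratio is given as a description, without a test. Sums weigh abundant genes most. Among the 60S genes, Rpl4 had means of 2915 CPM in wt and 3038 CPM in hnRNP L deficient libraries. In the same order Rplp0 had 2223 and 2520 CPM, Rpl8 1583 and 1831, Rplp1 1401 and 1643, and Rpl7a 992 and 1176. Of the 45 60S genes, 18 had a log2 fold change above 0 and 27 below. The part of the named genes in the ratio was not tested.

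**Figure D1:**
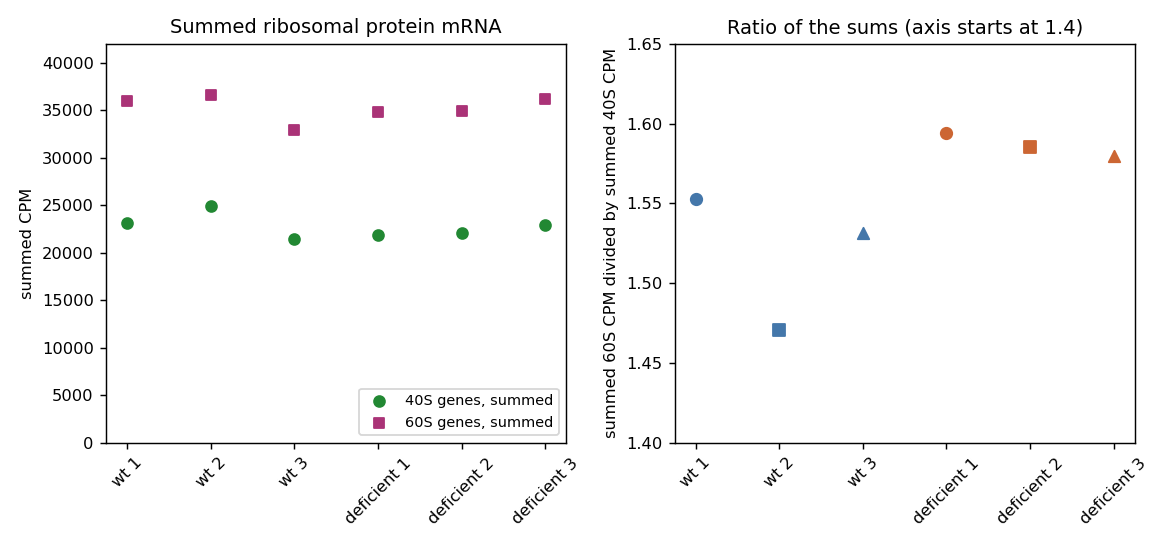
Summed CPM (left) of the 45 genes of the 60S subunit (squares) and the 30 genes of the 40S subunit (circles) in each of the 6 libraries, and the ratio of these sums (right, axis from 1.4). The sums of the 2 genotypes overlap, while the ratio is 1.58 to 1.59 in hnRNP L deficient and 1.47 to 1.55 in wt libraries.

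All 75 genes passed the expression filter and were deeply counted, with between 6060 and 228418 reads per gene and library. None was called higher or lower in hnRNP L deficient cells at an adjusted p under 0.05 by edgeR, while 9.32% of the 14396 genes tested were called higher and 9.85% lower (19.2% together). Among the 2499 genes whose mean CPM was at least that of the lowest ribosomal protein gene, 19.8% were called. At an unadjusted p under 0.05, 5 of the 75 genes passed (Rpl7a, Rplp1 and Rpl8 higher, Rpl39 and Rps27 lower), compared to 37.6% of all genes. DESeq2 called 4 of the 75, with Rpl7a, Rplp1 and Rpl8 higher and Rpl39 lower, against 26.7% of 15531 genes. Limma-voom with sample weights called 7 higher, which were Rpl7a, Rplp1, Rpl8, Rplp0, Rps2, Rpl27 and Rpl18, against 37.2% of all genes. EdgeR without wt replicate 1 called Rpl7a, Rplp1, Rpl8 and Rplp0 higher, against 32.4% of 14766 genes. Wt replicate 1 and hnRNP L deficient replicate 1 share the first part of their label numbers, as do hnRNP L deficient replicates 2 and 3, and what this part marks is not given in the sources used here. An edgeR fit with this part as a block, chosen after seeing the data, called 5 of the 75 genes higher and 27 lower, against 37.1% of all genes. In that fit the genotype effect comes from wt replicate 1 and hnRNP L deficient replicate 1 alone, and the spread between samples from hnRNP L deficient replicates 2 and 3 alone.

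The changes were small and close together. The median log2 fold change was -0.06 over the 75 genes, with 27 above and 48 below 0, and 0.015 with limma-voom sample weights, while it was -0.03 over all genes tested. The 40S genes had a median of -0.08 and the 60S genes of -0.05. Values within 0.25 of 0 on the log2 scale were found in 72 of the 75 genes (96.0%), compared to 43.9% of all genes tested, and the SD of the log2 fold changes was 0.13 over the 75 genes, 0.32 over the 2499 genes at or above the same level and 0.85 over all genes. The 95% interval of the log2 fold change lay within 1.5-fold in either direction for 72 of the 75. The other 3 were Rpl39, Rps27a and Rps21, which also had the lowest values. Standard errors ranged from 0.07 to 0.21.

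**Figure D2:**
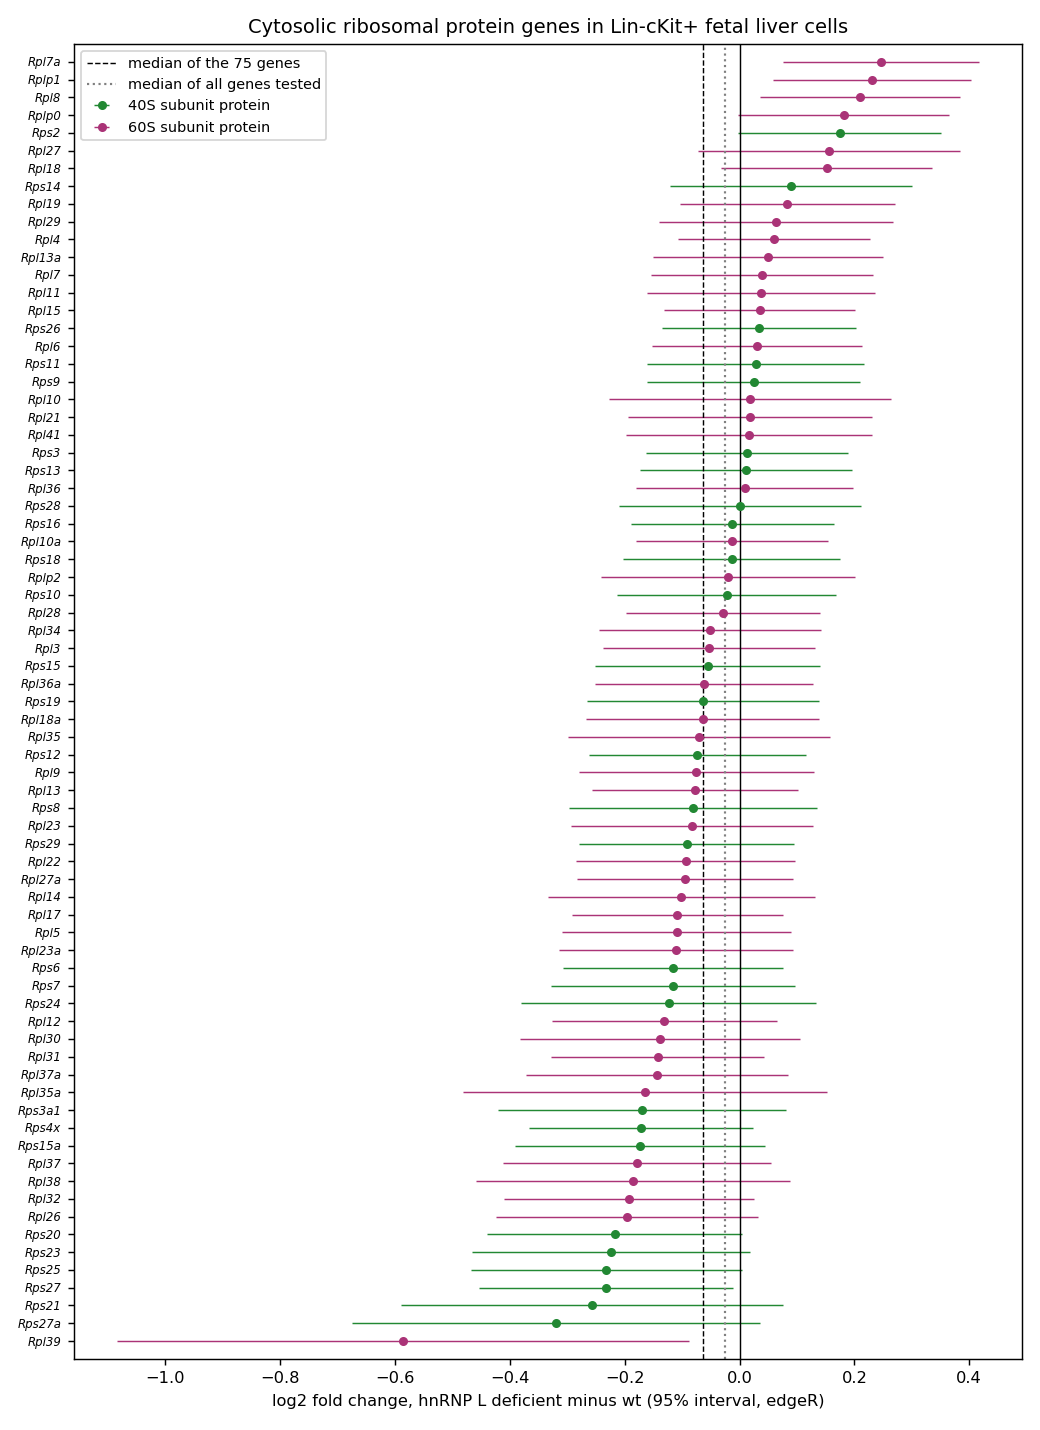
Log2 fold changes with 95% intervals of 73 of the 75 genes, ordered by value and coloured by subunit, with the medians of the 75 genes (dashed, -0.06) and of all genes tested (dotted, -0.03). Most genes lie within 0.25 of 0, Rpl39 lies farthest to the left (-0.59) and Rpl7a farthest to the right (0.25).

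Part of the spread was carried by the wt embryos. In 64 of the 75 genes the lowest wt value was in wt replicate 3, and in 56 the highest was in wt replicate 2. Wt replicate 3 lay below each hnRNP L deficient library in 47 genes and inside their range in 22. The SD was 7.80% of the mean in wt and 2.87% in hnRNP L deficient cells, as medians over the genes, and hnRNP L deficient replicate 3 was the highest of its group in 72 genes. Of the 3 hnRNP L deficient embryos 2 share the first part of their label number, whereas the 3 wt embryos share none, and the part of this in the smaller spread was not tested. The median of the log2 fold changes was -0.0056 without wt replicate 2 and -0.10 without wt replicate 3. The share of alignments that were not unique also differed, with 39.8% and 42.8% in wt replicates 1 and 2 and 44.1% to 44.7% in the other 4 libraries, and its part in these values was not tested.

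Among the large-subunit proteins, Rpl7a and Rpl8, both proteins of the core of the 60S subunit, had the highest values together with the stalk protein Rplp1, and neither passed the edgeR test. Rpl7a (ENSMUSG00000062647, chr2:26910764-26913318, plus strand, GRCm38) was at 1030, 967 and 978 CPM in wt and at 1188, 1157 and 1184 CPM in hnRNP L deficient libraries. Each hnRNP L deficient library lay above each wt library, with a log2 fold change of 0.25 (SE 0.07, edgeR adjusted p = 0.054, DESeq2 adjusted p = 0.0134). Rpl8 (chr15:76904078-76906314, plus strand) was at 1525, 1586 and 1637 CPM in wt and at 1842, 1787 and 1865 CPM in hnRNP L deficient libraries. These groups did not overlap either, with a log2 fold change of 0.21 (SE 0.07, edgeR adjusted p = 0.0838).

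The P stalk, the lateral protuberance that recruits translation factors to the 60S subunit, consists of Rplp0, Rplp1 and Rplp2. Rplp1 (chr9:61913284-61914542, minus strand) was at 1380, 1417 and 1405 CPM in wt and at 1580, 1656 and 1693 CPM in hnRNP L deficient libraries, with a log2 fold change of 0.23 (SE 0.07, edgeR adjusted p = 0.0655, DESeq2 adjusted p = 0.0137). Rplp0, the scaffold of the stalk, was at 2330, 2227 and 2112 CPM in wt and at 2467, 2486 and 2608 CPM in hnRNP L deficient libraries (log2 fold change 0.18, SE 0.08, edgeR adjusted p = 0.137). Neither gene overlapped between the genotypes. The third stalk gene, Rplp2, went from 691, 705 and 582 CPM to 647, 649 and 656 CPM and its hnRNP L deficient values lay between the wt values (log2 fold change -0.02, 95% interval -0.24 to 0.20).

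Rpl39 encodes a very small protein near the exit of the peptide tunnel and had the lowest value of the family. It was at 408, 415 and 235 CPM in wt and at 224, 234 and 247 CPM in hnRNP L deficient libraries, with a log2 fold change of -0.59 (SE 0.21, edgeR adjusted p = 0.0899, DESeq2 adjusted p = 0.0214). Wt replicate 3 lay between the hnRNP L deficient values, so that the difference rested on wt replicates 1 and 2. It was -0.81 without wt replicate 3 and -0.45 without wt replicate 2, and -0.23 with limma-voom sample weights.

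In the small subunit the lower end was held by Rps27a and Rps21. Rps27a, which is made as a fusion of ubiquitin with the ribosomal protein, was at 742, 773 and 525 CPM in wt and at 518, 540 and 577 CPM in hnRNP L deficient libraries (log2 fold change -0.32, SE 0.15, edgeR adjusted p = 0.167). Rps21 was at 481, 563 and 378 CPM in wt and at 394, 394 and 402 CPM in hnRNP L deficient libraries (log2 fold change -0.26, SE 0.14, edgeR adjusted p = 0.225). In both genes wt replicate 3 was within or below the hnRNP L deficient values. Rps21 had a log2 fold change of -0.11 without wt replicate 2 and of -0.39 without wt replicate 3. Rps6, the substrate of S6 kinase, was at 711, 746 and 659 CPM in wt and at 636, 639 and 678 CPM in hnRNP L deficient libraries, and the groups overlapped (log2 fold change -0.12, 95% interval -0.31 to 0.08).

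The groups did not overlap in 12 of the 75 genes. The hnRNP L deficient libraries lay above each wt library in 8 genes, namely Rpl4, Rpl8, Rpl18, Rpl27, Rpl7a, Rplp0, Rplp1 and Rps2, where 22.7% of all genes tested did so. They lay below each wt library in 4 genes, Rps4x, Rps20, Rps27 and Rpl23a, again with 22.7% among all genes. Of the first group 7 encode large-subunit proteins, and of the second 3 encode small-subunit proteins. Among all 75 genes 45 encode large-subunit and 30 small-subunit proteins. Rps27, whose name in this count was chosen after its values were seen, was at 124, 119 and 99.99 CPM in wt and at 94.1, 98.9 and 99.2 CPM in hnRNP L deficient libraries (log2 fold change -0.23, SE 0.09, edgeR adjusted p = 0.118).

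**Figure D3:**
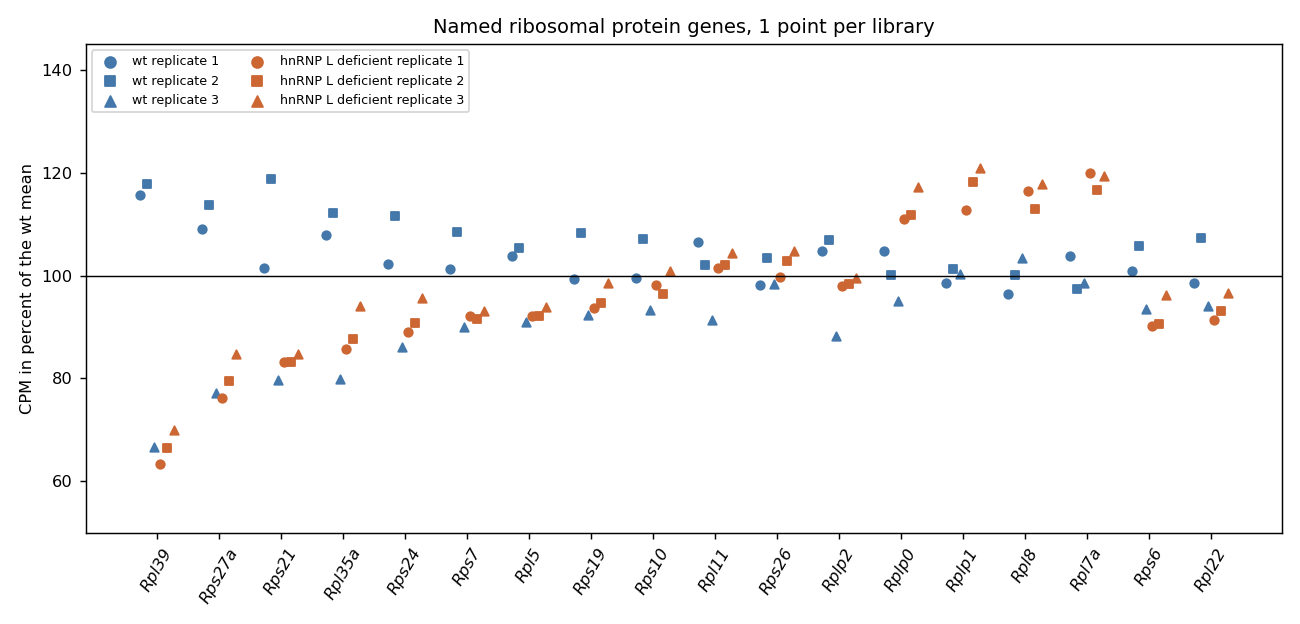
CPM of 18 ribosomal protein genes in each library, in percent of the mean of the 3 wt libraries (vertical axis from 50), with wt in blue and hnRNP L deficient in orange. Wt replicate 3 (blue triangles) lies with the hnRNP L deficient libraries for the genes on the left, and of the genes plotted only Rplp0, Rplp1, Rpl8 and Rpl7a have each hnRNP L deficient point above each wt point.

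A set of 8 genes of Diamond-Blackfan anemia (Rps7, Rps10, Rps19, Rps24, Rps26, Rpl5, Rpl11 and Rpl35a) had a median log2 fold change of -0.09, and none was called by edgeR or DESeq2. Of all genes, edgeR called 19.2% and DESeq2 26.7%. The values of the 8 genes ranged from -0.16 in Rpl35a to 0.04 in Rpl11, and all 8 overlapped between genotypes. Among all genes tested, 22.7% had each hnRNP L deficient library above each wt library and 22.7% below. Rps19, the gene most often mutated in the disease, was at 591, 644 and 549 CPM in wt and at 557, 563 and 586 CPM in hnRNP L deficient libraries (log2 fold change -0.06, 95% interval -0.27 to 0.14). Rpl35a was at 421, 438 and 312 CPM in wt and at 335, 343 and 367 CPM in hnRNP L deficient libraries, and its hnRNP L deficient values lay between those of wt replicate 3 and the other wt libraries. Rps26 and Rps10 were near 0, at 0.03 and -0.02, and Rps7 and Rps24 both at -0.12.

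Rpl5 and Rpl11 join the 5S ribosomal RNA in a particle that binds Mdm2 when ribosome assembly is disturbed, and this links them to p53. Rpl5 was at 876, 889 and 769 CPM in wt and at 778, 778 and 793 CPM in hnRNP L deficient libraries (log2 fold change -0.11, 95% interval -0.31 to 0.09). Rpl11 was at 657, 628 and 563 CPM in wt and at 625, 628 and 643 CPM in hnRNP L deficient libraries (log2 fold change 0.04, 95% interval -0.16 to 0.24). The groups overlapped in both genes.

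On the RPKM scale, CPM divided by the length of the transcript in kilobases, levels spanned a wide range within the family. Rplp1 was highest with a mean of 3050 RPKM over the 6 libraries, followed by Rps12 (2180 RPKM) and Rpl8 (2006 RPKM). Rps15a (116 RPKM), Rps20 (218 RPKM) and Rpl22 (235 RPKM) were lowest, but the annotated principal transcripts of Rps15a and Rps20 measure 5130 and 3706 bases, unlike most of the family (median 751 bases), and this lowers their RPKM. Many of these genes have processed pseudogenes. Of the stretches of 50 bases in a gene's transcript, a median of 57.4% also occurred in a transcript of another gene, up to 98.6% in Rps27, and reads that align to several places are not counted by HTSeq. Absolute levels are therefore of uniquely placed reads. Across the 75 genes the log2 fold change had a Spearman's rho of 0.03 with this share, of 0.15 with transcript length and of 0.36 with mean RPKM, values that come from the same libraries and are given as a description. Reads on 236 pseudogenes with ribosomal protein names amounted to 1.49% to 1.67% of the reads on the 75 genes in all libraries.

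Introns of ribosomal protein genes often carry small nucleolar RNAs (snoRNAs), which guide the modification of ribosomal RNA. By the annotation 29 of the 75 genes hosted 55 snoRNAs. The median log2 fold change of the hosts was -0.07, with 10 above and 19 below 0, and that of the other 46 genes was -0.06. The snoRNAs themselves were not analysed here.

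Among genes around the ribosome, those for 3 ribosomal proteins with other names were not called. Rack1, a protein of the 40S head that docks protein kinase C, was at 2107, 2239 and 2285 CPM in wt and at 2495, 2470 and 2533 CPM in hnRNP L deficient libraries, without overlap (log2 fold change 0.18, SE 0.07, edgeR adjusted p = 0.129). Rpsa was at -0.10 and Fau, a fusion of a ubiquitin-like protein with Rps30, at 0.03 on the log2 scale.

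Of the 9 listed paralogs of ribosomal proteins 7 were tested, and edgeR called 1 higher and 1 lower, where 9.32% and 9.85% of all genes were called. Rpl7l1, a relative of Rpl7 that acts in assembly of the large subunit, was at 239, 196 and 198 CPM in wt and at 296, 286 and 290 CPM in hnRNP L deficient libraries, a rise of 0.46 on the log2 scale (SE 0.09, edgeR adjusted p = 0.023). Rpl7 itself was at 0.04. Rpl22l1, the paralog whose expression Rpl22 represses, was at 184, 184 and 136 CPM in wt and at 124, 126 and 122 CPM in hnRNP L deficient libraries (log2 fold change -0.44, SE 0.12, edgeR adjusted p = 0.048). Neither gene overlapped between the genotypes, and the call of Rpl22l1 was lost in each of the 6 fits without a library and with median-of-ratios factors. Rpl22, which binds RNA outside the ribosome and is best known from T cell development, was at 490, 533 and 467 CPM in wt and at 454, 462 and 480 CPM in hnRNP L deficient libraries (log2 fold change -0.09, 95% interval -0.28 to 0.10). Rps27l (0.15), Rps27rt (0.17), Rps4l (0.13), Rpl36al (0.04) and Rpl39l (0.46, at 1.49 to 3.70 CPM) were not called. Rpl3l, a muscle form of Rpl3, was at 0.233 CPM or less and Rpl10l, a form used in testis, had no reads in any library.

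Of 7 listed chaperones and assembly factors of ribosomal proteins, edgeR called 3 higher and none lower in hnRNP L deficient cells. Among all genes 9.32% were called higher and 9.85% lower. The median log2 fold change of the 7 was 0.44. Grwd1, the chaperone of Rpl3, was at 116, 90.4 and 101 CPM in wt and at 173, 148 and 160 CPM in hnRNP L deficient libraries, a rise of 0.65 (SE 0.11, edgeR adjusted p = 0.016). Its client Rpl3 was at -0.05 (SE 0.08). Tsr2, the chaperone of Rps26, was at 56.7, 50.8 and 47.0 CPM in wt and at 73.2, 72.1 and 73.4 CPM in hnRNP L deficient libraries, a rise of 0.50 (SE 0.08, edgeR adjusted p = 0.016), and its client Rps26 was at 0.03. Rrs1, which brings the particle of Rpl5 and Rpl11 into the large subunit, also rose by 0.50 (SE 0.11, edgeR adjusted p = 0.028). Ltv1, Heatr3 and Rpf2 were at 0.43, 0.43 and 0.44 and were not called by edgeR, with adjusted p of 0.052, 0.060 and 0.079. DESeq2 called these 3 genes, and their groups did not overlap. Over the 7 genes DESeq2 called 6 higher, against 12.4% of all genes. In 6 of the 7 each hnRNP L deficient library lay above each wt library, against 22.7% of all genes tested. Aamp was at -0.08. The difference between a chaperone and its client was not tested.

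Among 12 regulators of ribosomal protein mRNAs, edgeR called 2 higher, against 9.32% of all genes, and DESeq2 called 4 higher, against 12.4%. Mlst8, a subunit of the mTOR complexes, rose by 0.31 (SE 0.07, edgeR adjusted p = 0.028), and Eif4ebp1, a translational repressor that mTOR inactivates, rose by 0.34 (SE 0.09, edgeR adjusted p = 0.045). The call of Eif4ebp1 was lost in each of the 6 fits without a library. It was also lost with total counts, with a mean of at least 10 CPM and with limma-voom (adjusted p = 0.057). The call of Mlst8 was lost with total counts, without wt replicate 3 and without any one hnRNP L deficient library. Myc, which drives ribosome production, was at 412, 337 and 470 CPM in wt and at 603, 517 and 550 CPM in hnRNP L deficient libraries and these groups did not overlap. It was not called by edgeR (log2 fold change 0.45, adjusted p = 0.054) but by DESeq2 (adjusted p = 0.0099). The same held for Eif4ebp2, another repressor of this kind (log2 fold change 0.41, edgeR adjusted p = 0.060, DESeq2 adjusted p = 0.019). Mtor was at -0.09 and Larp1 at 0.36, neither called by edgeR or DESeq2. Larp1 was at 634, 445 and 538 CPM in wt and at 751, 653 and 669 CPM in hnRNP L deficient libraries, without overlap. Limma-voom called it (adjusted p = 0.024), against 37.2% of all genes. Of the 12 regulators, 5 had each hnRNP L deficient library above each wt library, against 22.7% of all genes tested.

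Other mRNAs with a TOP tract gave a median log2 fold change of 0.09 over 17 genes, compared to -0.06 over the ribosomal protein genes. Eef1d, a subunit of the exchange factor of elongation factor 1, was the single one called by edgeR, at 413, 338 and 320 CPM in wt and 502, 486 and 485 CPM in hnRNP L deficient libraries (log2 fold change 0.46, SE 0.11, edgeR adjusted p = 0.031). DESeq2 also called Npm1, a nucleolar chaperone, which was at 3463, 2547 and 2375 CPM in wt and at 3629, 3578 and 3741 CPM in hnRNP L deficient libraries, without overlap (log2 fold change 0.38, edgeR adjusted p = 0.101, DESeq2 adjusted p = 0.042). Eef1a1, elongation factor 1 itself, was at -0.03. Of the 46 genes tested over the 5 lists of genes around the ribosome, edgeR called 7 higher and 1 lower, against 9.32% and 9.85% of all genes. DESeq2 called 13 of them higher and 1 lower, against 12.4% and 14.3% of all genes. None of these calls was made in the fits without wt replicate 3 or without any one hnRNP L deficient library, in which between 5 and 17 of all genes were called.

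**Figure D4:**
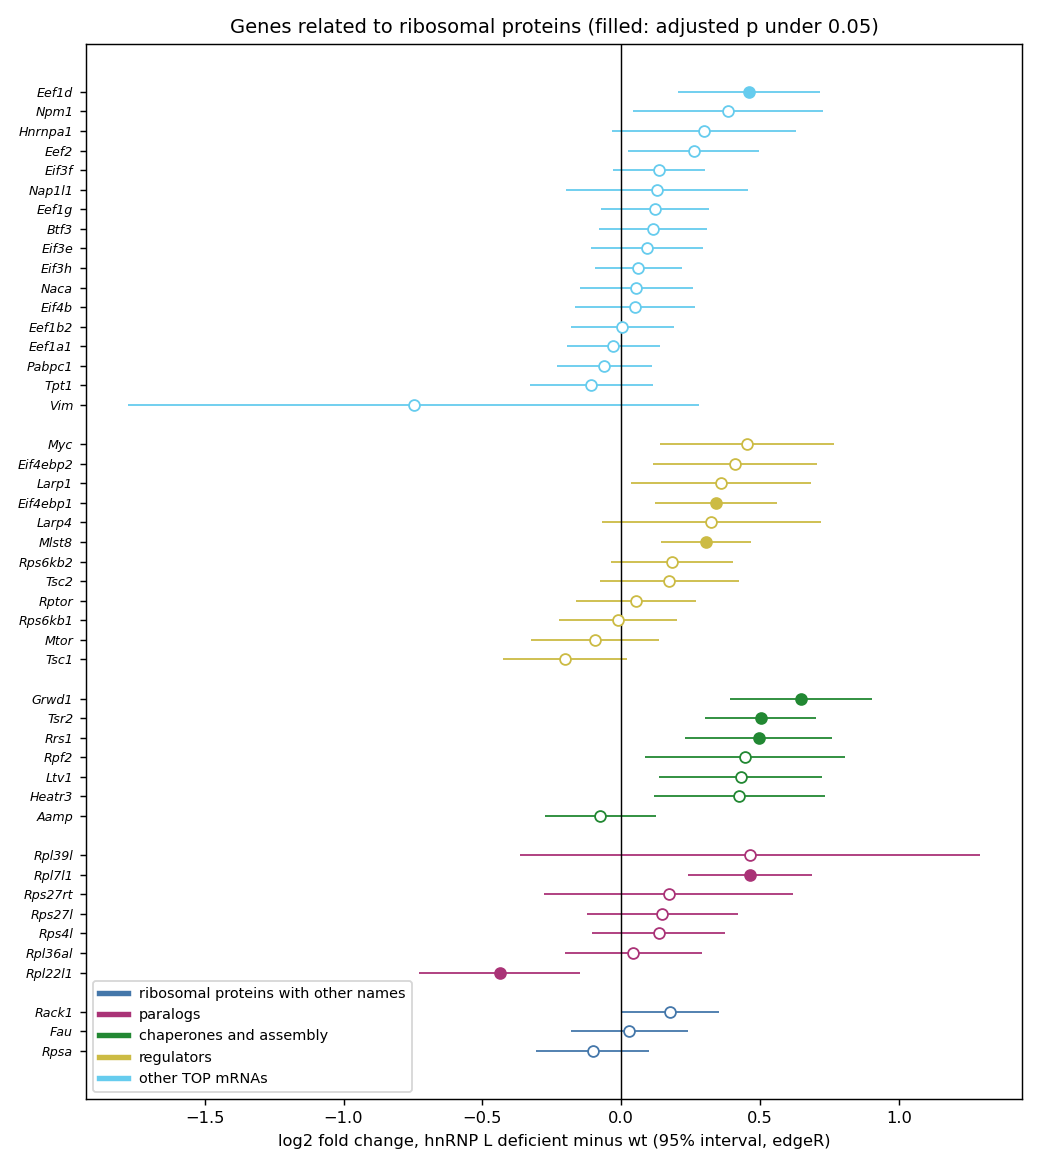
Log2 fold changes with 95% intervals of genes around the ribosome, grouped by role, with filled points for an edgeR adjusted p under 0.05. Rpl7l1, Grwd1, Tsr2, Rrs1, Mlst8, Eif4ebp1 and Eef1d are filled to the right of 0 and Rpl22l1 to the left.

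Reads within the ribosomal protein genes were compared over exon bins, non-overlapping pieces of the exons of a gene, in all wt libraries and in replicates 2 and 3 of the hnRNP L deficient embryos. No bins of the first hnRNP L deficient embryo were analysed here. Usage is the level of a bin relative to the rest of its gene. The genes had 1081 bins, of which 1050 were tested, and 16 of the 75 genes shared a unit with an overlapping gene. None of the 1050 bins changed in usage at an adjusted p under 0.05, compared to 0.0288% of 176996 bins in all, while 107 had an unadjusted p under 0.05, compared to 1.03% of all bins. The 1050 bins were also counted more deeply, with a median of 2287 reads compared to 208 over all bins, and the part of this in the count was not tested. At an unadjusted p under 0.01 and a change above 2-fold, 15 bins in 11 genes passed, 8 higher and 7 lower, compared to 0.249% of all bins. Limma's diffSplice called 10 bins in Rpl13a, Rpl15, Rpl22, Rpl27a, Rpl28 and Rpl29, 7 of them lower, compared to 0.123% of all bins, and edgeR without wt replicate 2 called 7, compared to 0.0897% of all bins.

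Rpl22, with 4 bins, and Rpl15, with 2, were the genes in which diffSplice called more than 1 bin, and both were singled out after their values were seen. In Rpl22 (chr4:152325742-152334071, plus strand) the last bin, number 20, had 3352, 4745 and 5284 reads in wt replicates 1 to 3 and 2515 and 2881 reads in the hnRNP L deficient libraries. As CPM of all reads on bins these were 32.8, 45.4 and 38.4 in wt and 20.6 and 20.3 in hnRNP L deficient libraries, without overlap (log2 usage change -0.88, edgeR adjusted p = 0.455, limma adjusted p = 4.6e-05). Its bins 17 and 18, with between 125 and 368 reads, had log2 usage changes of -1.38 and -1.37 (edgeR adjusted p = 0.134 and 0.157). Bin 5 of Rpl22 went the other way, from 4.55, 4.66 and 3.57 to 7.24 and 6.89 on the same scale (log2 usage change 0.78, limma adjusted p = 0.0378). The bins that carry most reads of Rpl22, numbers 12, 13 and 16, stayed within 0.06 of 0 on the log2 scale.

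In Rpl15 (chr14:18267823-18271391, minus strand) bin 1 had 3743, 3828 and 4378 reads in wt and 2656 and 2814 reads in hnRNP L deficient libraries. On that scale these were 36.6, 36.6 and 31.8 in wt and 21.7 and 19.8 in hnRNP L deficient libraries (log2 usage change -0.81, edgeR adjusted p = 0.867, limma adjusted p = 4.2e-04). Bin 2 of Rpl15 had a log2 usage change of -1.28 (limma adjusted p = 0.0199), and the gene as a whole was at a log2 fold change of 0.03. The counting script numbers bins by rising genome coordinate, which puts the lower bins of both Rpl22 and Rpl15 at the 3′ side of the gene, while the bins' own coordinates were not used here. The smallest p of edgeR was in bin 24 of Rps18 (45 to 200 reads, log2 usage change -1.79, edgeR adjusted p = 0.104), where wt replicate 3 lay between the other wt libraries and the hnRNP L deficient ones.

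**Figure D5:**
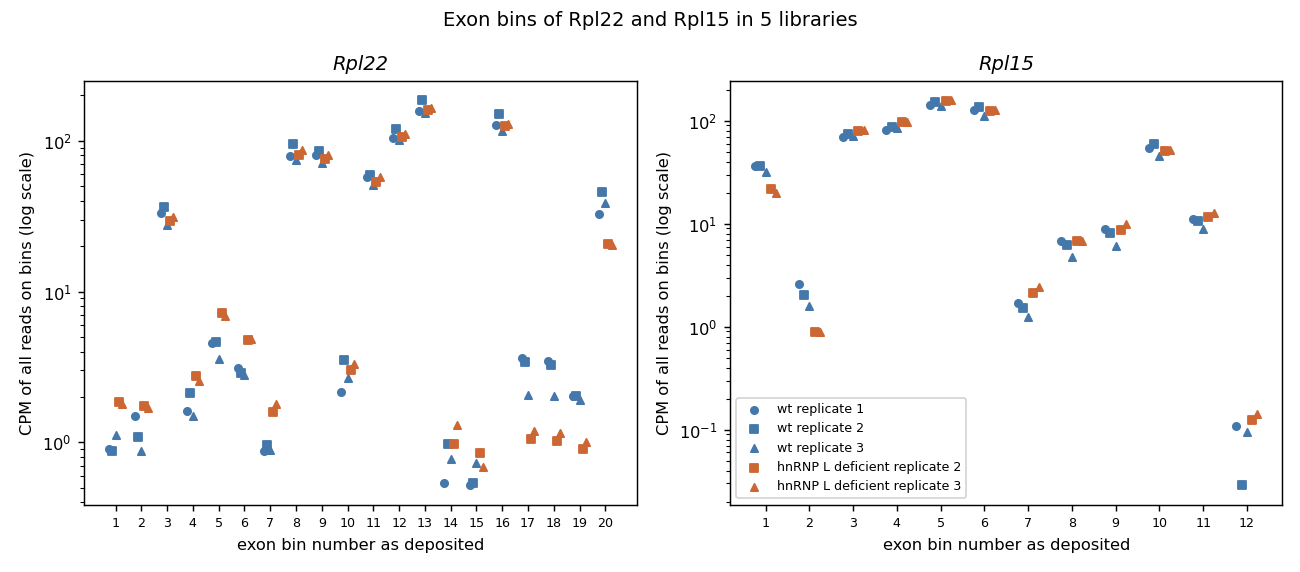
CPM of all reads on bins (log scale) for each tested exon bin of Rpl22 (left) and Rpl15 (right), with 1 point per library for 3 wt (blue) and 2 hnRNP L deficient libraries (orange). The hnRNP L deficient points lie below the wt points in bins 17 to 20 of Rpl22 and in bins 1 and 2 of Rpl15, and with them in the bins that hold most reads.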

How the data were processed

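RNA of Lin-cKit+ FL cells from 3 wt and 3 VavCre+ hnRNP L fl/fl embryos was sequenced by the authors as paired ends on TruSeq stranded libraries. The authors aligned the reads to GRCm38 (mm10) with TopHat2 2.0.10, as in the submitters' processing notes, and deposited raw counts per gene from HTSeq and per exon bin from the DEXSeq counting script. The Ensembl release and the strand option of the counting are not given in the sources used here. The tissue label reads whole embryo, and the cell population was taken from the study's methods. Each sample is 1 embryo, and replicates were numbered in accession order.

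The deposited counts were fitted with edgeR 4.0.16 in R 4.3.3 (TMM, default expression filter, robust quasi-likelihood test), KO against wt without covariates, with Benjamini-Hochberg adjustment over all 14396 genes tested of 38293. For exon bins the test was diffSpliceDGE, on bins that averaged 10 or more reads. Alternatives used DESeq2 1.42.0 and limma 3.58.1, other normalizations and filters, each library left out, and a block on the first part of the label number. Symbols, biotypes, coordinates and lengths (APPRIS principal transcripts) came from GENCODE vM21 on GRCm38, to which 95.1% of identifiers matched. Depth was 55952160 to 76157226 reads on genes, at which 3 reads are at most 0.0536 CPM. The steps were tested on simulated data. The members and gene lists were chosen with earlier results of these data known.

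Genes were named by rule: members called, if 15 or fewer, the 3 highest and 3 lowest log2 fold changes and RPKM, the disease, 5S particle and stalk lists, Rps6 and Rpl22, members with a called bin, the paralogs and ribosomal proteins with other names, and up to 3 called genes of other lists. Genes in counts of calls and non-overlapping groups, unadjusted p, bins, chaperones and clients were named after their values were seen. Values of some single genes of these lists are not reported here.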

Additional observations from a re-analysis of the deposited data

How the results depend on the processing

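The edgeR result of no called ribosomal protein gene held with median-of-ratios factors, total counts, TMM without these genes, other filters and no robust estimation. DESeq2 called 3 higher and 1 lower and limma-voom with sample weights 7 higher, where 26.7% and 37.2% of all genes were called either way. DESeq2 without wt replicate 2, chosen after seeing the data, called 6 higher. The share of all genes called in that fit is not given here. Leaving out each library gave 0 to 4 called higher and 0 called lower, but with few calls anywhere in some of these fits. The median log2 fold change moved from -0.06 to 0.015 with limma-voom and ranged from -0.10 to -0.0056 without single libraries. Their share of reads had a log2 ratio of -0.09, -0.02 on the normalized scale and -0.13 to -0.04 without single libraries, the latter chosen after seeing the data. Among genes around the ribosome, DESeq2 called 13 higher, and leaving out a library gave 0 to 15 higher and 0 to 1 lower. For exon bins, diffSplice called 10, the looser rule 15, and leaving out a library 0 to 7. Values near 0 changed sign. With total counts they were -0.0433 for Fau, -0.0326 for Rpl11, -0.0251 for Rpl36al and -0.037 for Rps26. With a mean of at least 10 CPM they were -0.0239, -0.0137, -0.0067 and -0.0176 for the same genes. With no filter Rplp2 was 0.0034 and Rps10 0.0014. With limma-voom, Rpl35a was 0.0353, Rplp2 0.0806, Rps10 0.0393, Rps19 0.0147 and Rps24 0.0149. With DESeq2 without wt replicate 2, Rplp2 was 0.0408, Rps10 0.0404 and Rps19 0.0076. Without single libraries the values ranged from -0.0232 to 0.1075 for Fau, -0.022 to 0.0899 for Rpl11, -0.0587 to 0.1097 for Rpl36al, -0.1004 to 0.0315 for Rplp2, -0.0673 to 0.0307 for Rps10 and -0.0199 to 0.3418 for Rps27rt. The cause was not tested. The replicate numbers follow accession order and pair no embryos. With a replicate block on the first part of the label number, chosen after seeing the data, edgeR called 5 ribosomal protein genes higher and 27 lower, and 18 genes around the ribosome higher and 4 lower. In that fit 37.1% of all genes were called either way. The genotype effect then rests on the 1 pair of libraries that shares this part across genotypes, in which the median was -0.09, so that this fit and the others use different embryos. Under the block Rpl11 was -0.071, Rpl36al -0.0812, Rpl39l -0.3959 and Rps27l -0.079. For exon bins no block could be fitted, since the first hnRNP L deficient embryo has no bins here. The limits set by depth were not tested.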
